A study of Mus musculus with 88 samples.

Results

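Hearts of probucol-fed double knockout mice at 43 days of age were compared with hearts of chow-fed control mice of the same age. The 15 arrays that enter it, 6 from dKO mice on probucol and 9 from HET mice on chow, were taken from the genotype, age and diet labels, out of 88 arrays of the whole series. The dKO mice carried SR-BI-/- apoE-/- alleles and the HET controls SR-BI+/- apoE-/- alleles, so every mouse lacked apolipoprotein E and the controls carried a defective SR-BI allele as well. Each array measured RNA of the whole heart of a different mouse. By the series' design text, chow-fed dKO mice have extensive infarction and severe heart failure at 43 days, whereas chow-fed HET mice show no detectable coronary disease. The comparison therefore describes which differences from the control heart are present under the drug at the age when untreated dKO hearts fail. Genotype and diet both differ between the groups and cannot be told apart within it. Values of 12 dKO hearts on chow and of 2 HET hearts on probucol, all at 43 days, are given alongside. No tissue was sorted, and no sex was labelled.

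SR-BI, encoded by Scarb1, is the receptor through which cells take cholesteryl ester from high-density lipoprotein (HDL), and mice lacking both SR-BI and apoE carry abnormal, cholesterol-rich lipoproteins and develop occlusive coronary disease. Probucol is a lipophilic antioxidant drug that lowers plasma cholesterol. The liver X receptors (LXR) are nuclear receptors that sense oxidised cholesterol and switch on genes for cholesterol efflux and fatty acid synthesis, among them Abca1 and Srebf1.

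Probucol-treated dKO hearts differed from control hearts in few genes. The calls that held in the most settings were those of Scarb1 and of the lipid genes Apod, Abca1 and Scd2. Srebf1 and Prpf19, a gene of the spliceosome, came next. Of 5672 genes tested with limma, 44 passed an adjusted p of 0.05, which is 0.776% of the genes. Of these, 18 were higher (0.317%) and 26 were lower (0.458%) in dKO probucol hearts. In chow-fed dKO hearts, set against the same 9 control arrays, 2678 genes passed (47.2%), 1090 higher (19.2%) and 1588 lower (28%). A direct fit of dKO probucol against dKO chow called 2169 genes (38.2%), with 2595 (45.8%) at an unadjusted p under 0.05. The median difference of dKO probucol from HET chow over all genes was -0.02 on the log2 scale, and the median 95% interval reached 0.384 to either side. That interval is not adjusted for the number of genes, so a call of a typical gene needed a larger shift. In simulated data, 10% of genes changed by 0.5 were called. An unadjusted p under 0.05 was reached by 712 genes (12.6%). The size of the set depended on individual arrays. Without dKO probucol replicate 3, 4, 5 or 6 the count was 8, 21, 12 or 18, and without HET chow replicate 2, 3, 5, 6 or 8 it was 115, 16, 16, 24 or 26. On the signals as deposited, without centring, the split was 15 higher and 47 lower.

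**Figure D1:**
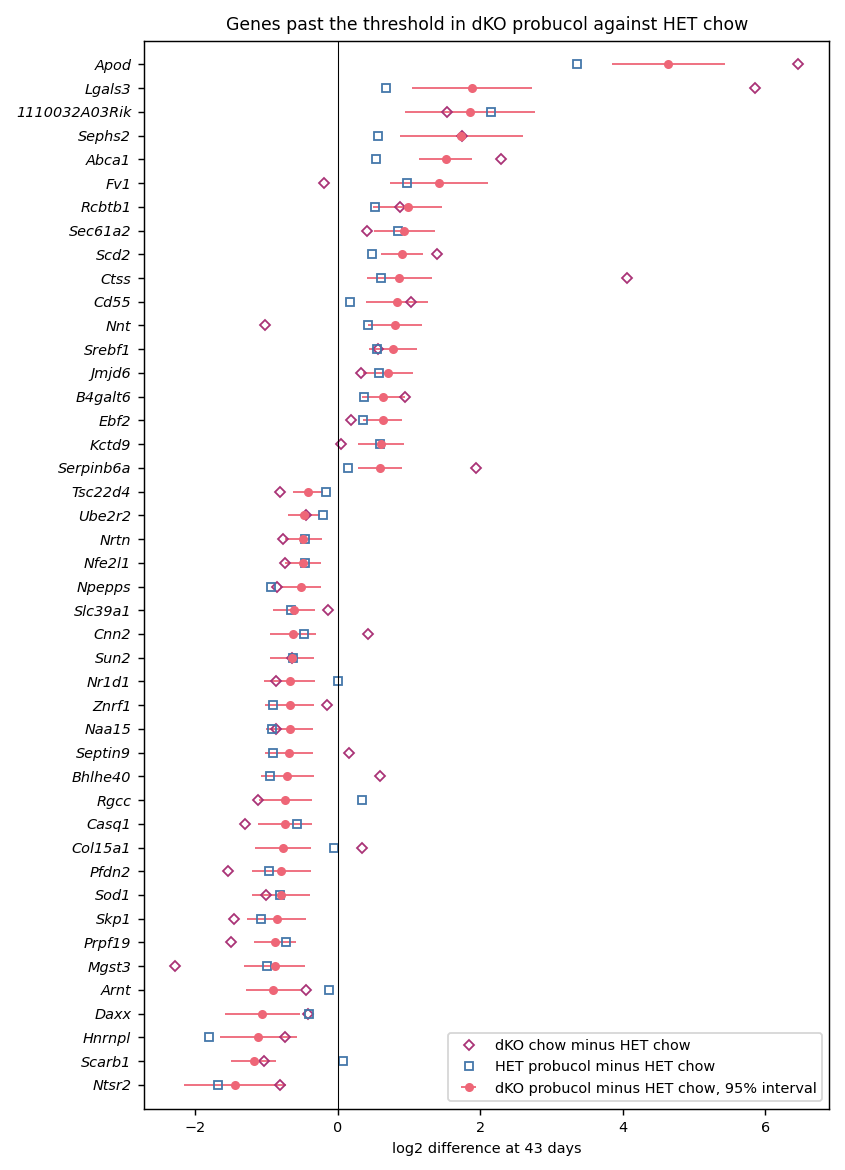
Log2 differences at 43 days for the 44 genes that passed in dKO probucol against HET chow (filled circles, with 95% intervals), ordered by size; open diamonds show dKO chow minus HET chow and open squares HET probucol minus HET chow, and all of them share the 9 HET chow arrays. Apod lies farthest to the right at 4.64, and Lgals3 and Ctss show the widest gaps between the filled circle and the diamond.

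The arrays bore out the tissue label. Myh6, Actc1, Tnni3, Myl2 and Tnnt2, which encode heart sarcomere proteins, had mean log2 levels from 7.10 to 7.77 above the array median in dKO probucol hearts and from 6.93 to 7.55 in HET chow hearts. Several array properties differed between the groups. A set of 20 of the 88 arrays stood apart on the second component of the residual variation, and it held 3 of the 9 HET chow arrays (replicates 3, 4 and 5) but 0 of the 6 dKO probucol arrays. HET chow replicates 1 and 9 stood apart on the first component. The log2 ratio of 3′ to 5′ signal was -0.03 for Gapdh and -0.12 for actin in dKO probucol hearts, against -0.21 and 0.11 in HET chow hearts, and as covariates these ratios gave 23 and 87 called genes. Eif2s3y exceeded Xist on 2 of 6 dKO probucol arrays and on 5 of 9 HET chow arrays, and on 2 of 2 HET probucol arrays. The part of these properties in the count was not tested beyond the refits: it was 20 with the array set as a block, 5 without the 3 arrays of the smaller set, 95 without the 2 arrays apart on the first component, and 43 with Eif2s3y minus Xist as a covariate. Genes that passed in each of 34 settings without a minimum fold, these among them, were Scarb1, Apod, Abca1 and Scd2. With a minimum of 1.5-fold no lower gene passed, so Scarb1 did not. Of the 34 settings, Srebf1 and Prpf19 passed in 33 and Lgals3 in 32. The other called genes passed in 13 to 30 (5 of the 44 could be fitted in 33 settings). Without the 3 arrays, Srebf1 was the lost gene of the first 6, at 0.75 with an adjusted p of 0.0762.

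Scarb1 was measured first, since it is the targeted gene. All levels below are log2 signals relative to the median of their array. In dKO probucol hearts Scarb1 lay between 0.42 and 1.23 (median 0.96, n = 6), and in HET chow hearts between 1.52 and 2.43 (median 2.14, n = 9). The ranges did not overlap, in keeping with the genotype labels. The difference was -1.18 ± 0.16 (SE), a 2.27-fold lower level, with an adjusted p of 7.73e-08. Chow-fed dKO hearts ranged from 0.78 to 1.52, and the 2 HET probucol hearts had 2.10 and 2.23. Against those 2 hearts, dKO probucol was lower by -1.25 ± 0.24 (SE), with an adjusted p of 0.00413. A remaining signal was read in every dKO heart, and no source used here places the probes relative to the deleted part. Apoe was too dim on its probe sets to be tested.

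The list of cholesterol efflux and LXR target genes held the largest group of rises. Of 15 measured members 4 rose and 0 fell, and the median difference of the list was 0.36. Over all genes tested, 0.317% rose and 0.458% fell. The 4 were Apod, Abca1, Scd2 and Srebf1. For 2 of them the promoter is shown because it carries an element known from LXR biology, a direct repeat with a spacing of 4 bases. Both are RefSeq sequences on GRCm38.p6, from 250 bases before to 50 after a transcription start, on the minus strand of the chromosome, and read 5′ to 3′. The Abca1 window is chr4:53159846-53160145 and the Srebf1 window, the match among 3 annotated starts, is chr11:60210422-60210721. Capitals mark the match to GGTTANNNNCGGTCA, here read on the opposite strand.
Abca1: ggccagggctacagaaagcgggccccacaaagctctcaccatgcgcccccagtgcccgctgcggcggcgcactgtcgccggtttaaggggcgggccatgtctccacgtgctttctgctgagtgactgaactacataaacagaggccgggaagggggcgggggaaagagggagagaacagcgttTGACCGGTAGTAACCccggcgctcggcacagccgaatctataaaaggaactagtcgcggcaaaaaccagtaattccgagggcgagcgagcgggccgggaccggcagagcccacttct
Srebf1: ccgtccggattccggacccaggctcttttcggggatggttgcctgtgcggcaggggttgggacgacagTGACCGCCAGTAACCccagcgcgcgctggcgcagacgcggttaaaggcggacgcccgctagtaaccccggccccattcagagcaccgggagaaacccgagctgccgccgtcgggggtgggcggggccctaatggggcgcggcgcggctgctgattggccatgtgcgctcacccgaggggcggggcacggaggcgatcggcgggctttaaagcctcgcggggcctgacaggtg

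Searched on both strands, this motif occurred in 4 of 32851 windows (0.0122%), those of Abca1, Srebf1, Fasn and Prrg4. The match lay 67 to 53 bases before the start in Abca1 and 182 to 168 bases before it in Srebf1. The letters were chosen from what is known of these promoters, so their presence there is no finding, and a match is a description of sequence. Fasn, which encodes fatty acid synthase, stood at 0.63 ± 0.26 (SE) and did not pass, with an adjusted p of 0.28, and Prrg4 was not among the genes tested. The Apod window held no match. No entry was found for Scd2.

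Apod encodes apolipoprotein D, a lipocalin that carries small lipophilic molecules and travels on HDL. It lay between 2.88 and 4.34 in dKO probucol hearts (median 3.33) and between -3.17 and 0.23 in HET chow hearts (median -1.23). No control heart reached any treated heart. The difference of 4.64 ± 0.40 (SE) was the largest of all genes tested and corresponds to 24.9-fold, with an adjusted p of 1.63e-15. Control signals were faint, with a median of 17.1 units against 471 units in dKO probucol hearts, so the fold depends on how background was removed. Chow-fed dKO hearts were higher still, from 4.87 to 5.65, and dKO probucol lay below them by -1.82 ± 0.38 (SE, adjusted p of 4.18e-05). Among the HET probucol hearts Apod stood at 2.53 and 1.79, above all 9 HET chow hearts. That difference of 3.37 ± 0.59 (SE) passed as well, with an adjusted p of 0.000475. Against HET probucol, dKO probucol stood at 1.28 ± 0.62 (SE) and did not pass, with an adjusted p of 0.949. Both HET probucol hearts nevertheless lay below every dKO probucol heart.

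Abca1 encodes the transporter that loads cellular cholesterol and phospholipid onto apolipoprotein A-I. Its level was 3.18 to 3.76 in dKO probucol hearts (median 3.39) and 1.27 to 2.32 in HET chow hearts (median 1.93). The groups stood apart with no overlap, by 1.51 ± 0.18 (SE), or 2.85-fold (adjusted p of 7.09e-09). A second probe set of Abca1 gave 1.43. Chow-fed dKO hearts lay above both groups, at 3.92 to 4.57. HET probucol hearts had 2.60 and 2.28, of which the first lay above all chow controls and the second among them.

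Scd2 and Srebf1 belong to fatty acid synthesis. Scd2 encodes a stearoyl-CoA desaturase and ranged from 3.02 to 3.47 in dKO probucol hearts against 2.11 to 2.74 in HET chow hearts, a difference of 0.91 ± 0.15 (SE, adjusted p of 3.98e-05). Its second probe set gave 0.64 and did not pass over all probe sets (adjusted p of 0.151). Srebf1 encodes the sterol regulatory element-binding protein that drives lipogenic genes. It ranged from 2.87 to 3.20 in dKO probucol hearts and from 1.84 to 2.56 in HET chow hearts, a difference of 0.78 ± 0.17 (SE, adjusted p of 0.0134). Neither gene overlapped between the groups. Against the same controls, chow-fed dKO hearts differed by 1.39 in Scd2 and by 0.56 in Srebf1. Direct comparison put Scd2 lower in dKO probucol than in dKO chow by -0.49 (adjusted p of 0.00347) and left Srebf1 unresolved at 0.22 (adjusted p of 0.295). In HET probucol hearts both arrays of either gene lay above every HET chow array, the lower at 2.76 for Scd2 and at 2.63 for Srebf1, but neither difference passed (adjusted p of 0.498 for both).

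**Figure D2:**
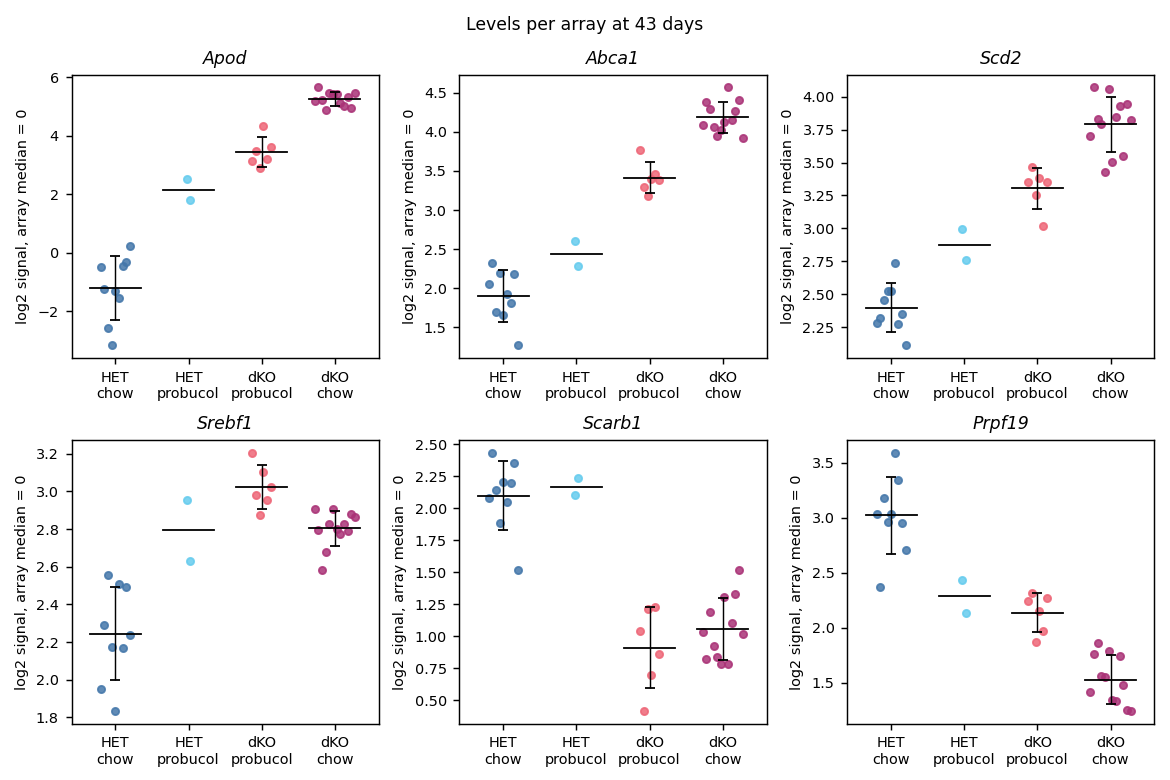
Log2 signal per array (array median at 0) of Apod, Abca1, Scd2, Srebf1, Scarb1 and Prpf19 in the 4 groups of 43 days; points are hearts, horizontal lines are means and bars are SD (not drawn for the 2 HET probucol hearts). In each panel the 6 dKO probucol hearts do not overlap the 9 HET chow hearts. In Apod, Abca1, Scd2 and Prpf19 the group means of dKO probucol lie between those of HET chow and dKO chow.

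The other 11 measured members of the list did not pass. Lpcat3, a phospholipid acyltransferase, stood at 1.11 ± 0.34 (SE, adjusted p of 0.0996), and Abcg1, which exports cholesterol to HDL, at 0.46 ± 0.18 (SE, adjusted p of 0.231). Pltp, the phospholipid transfer protein, stood at 0.37, and Nr1h3, the gene of LXR alpha itself, at -0.08. In chow-fed dKO hearts 13 of the 15 were higher and 1 was lower, with a median of 0.87. There, 19.2% of all genes tested were higher and 28% lower. The 8 measured genes of sterol synthesis and uptake had a median of 0.01 in dKO probucol hearts and 0 calls. Fdps, the farnesyl diphosphate synthase, came closest at -0.48 ± 0.14 (SE, adjusted p of 0.0651). Of 10 scavenger receptor and lipid loading genes Scarb1 alone was called, beside 0.776% of all genes tested. Plin2, which coats lipid droplets, stood at 0.24 and Cd36, a fatty acid translocase, at 0.16.

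The same lipid genes already stood apart at 21 days, before coronary disease is detectable in untreated dKO mice by the design text. At that age 6 genes passed between dKO probucol and HET chow (0.106%), 4 higher (0.0705%) and 2 lower (0.0353%), and 317 (5.59%) had an unadjusted p under 0.05. Of the 6, 5 (83.3%) were among the 44 genes of 43 days, of which they are 11.4%. They were Scd2, Apod, Abca1, Srebf1 and Scarb1, each with the same sign at both ages, and the arrays of the ages are different mice. Differences at 21 days were 3.99 for Apod, 1.83 for Abca1, 1.54 for Scd2, 1.56 for Srebf1 and -1.30 for Scarb1. Ddit4, a stress-induced inhibitor of mTOR signalling, was the sixth, at -1.30 (adjusted p of 0.027) against -0.66 at 43 days (adjusted p of 0.315). No gene passed for a change of the difference from 21 to 43 days in limma's fit (0 of 5672, 0%), and 405 genes (7.14%) had an unadjusted p under 0.05. With array weights 1 gene passed. The largest age shifts among the 5 were in Srebf1 (-0.78, adjusted p of 0.494) and Scd2 (-0.63, adjusted p of 0.494).

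**Figure D3:**
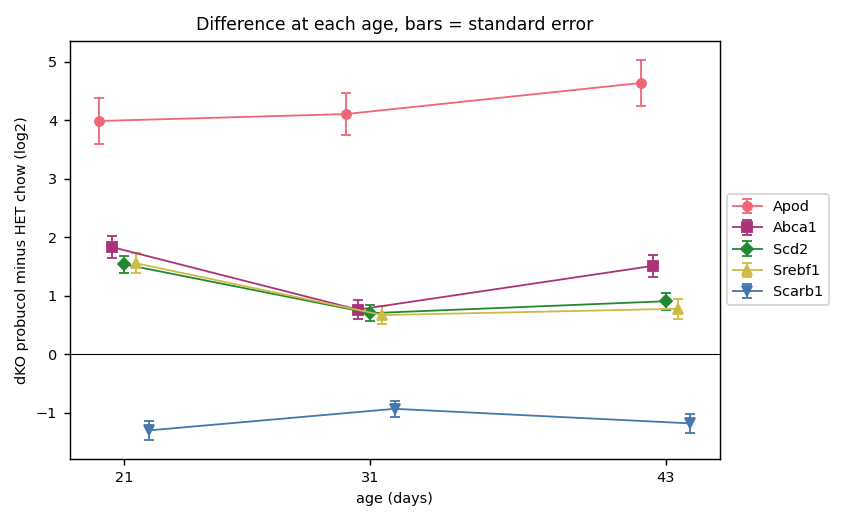
Difference between dKO probucol and HET chow hearts (log2, vertical axis) at 21, 31 and 43 days (horizontal axis) for Apod, Abca1, Scd2, Srebf1 and Scarb1; bars are standard errors and points are shifted sideways for legibility. Apod, Abca1, Scd2 and Srebf1 lie above 0 and Scarb1 below 0 at each age.

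At 31 days the comparison called 793 genes (14%), 77 higher (1.36%) and 716 lower (12.6%), and 25 of the 44 genes of 43 days (56.8%) were among them, all with the same sign. Those 25 are 3.15% of the genes called at 31 days. The smaller array set held 6 of 10 HET chow and 1 of 8 dKO probucol arrays of that age, and its part in the count was not tested. Across ages, Apod in HET probucol hearts lay above HET chow hearts without overlap, at 1.12 to 2.96 against -2.36 to -0.29 at 21 days (n = 3 and 9) and at 1.05 to 1.24 against -3.12 to -0.39 at 31 days (n = 3 and 10). The Abca1, Scd2 and Srebf1 levels of the HET probucol hearts were above all HET chow hearts at 21 days and overlapped them at 31 days. These levels were not tested.

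Few macrophage genes were called against control hearts under the drug. Macrophages bring their own lysosomal proteases, complement and lectins into injured muscle, and whole-heart RNA cannot tell more cells from more RNA per cell. Of 20 macrophage and monocyte genes, 2 rose and 0 fell in dKO probucol hearts, with a median difference of 0.09. Among all genes tested 0.317% rose and 0.458% fell. In chow-fed dKO hearts 19 of the 20 rose, with a median of 1.98, where 19.2% of all genes rose. The mean log2 level of the list was 1.43 to 1.69 (median 1.54) in dKO probucol hearts and 1.04 to 1.53 (median 1.24) in HET chow hearts. In dKO chow hearts it was 2.92 to 3.84. Treated and control hearts thus overlapped, although the treated median lay above the highest control. Both groups lay below every untreated dKO heart.

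Lgals3, which encodes galectin-3, was the larger of the 2 rises. It ranged from -0.20 to 0.64 in dKO probucol hearts (median 0.30) and from -3.23 to -0.05 in HET chow hearts (median -1.08), where 1 value lay at the signal floor. The ranges overlapped at their ends. The difference was 1.88 ± 0.43 (SE, adjusted p of 0.0178), against 5.86 in chow-fed dKO hearts, whose levels were 3.33 to 4.83. Ctss, the lysosomal protease cathepsin S of antigen-presenting cells, ranged from 2.04 to 2.71 against 1.04 to 2.27, a difference of 0.87 ± 0.23 (SE, adjusted p of 0.0411) that passed in 17 of 34 settings. In dKO chow it was 5.22 to 6.13, and in the HET probucol hearts 2.18 and 2.28, inside the dKO probucol range. The defining macrophage genes were not called. Cd68 stood at -0.09, Csf1r at 0.14, Lyz2 at 0.32 and Adgre1 at 0.78 ± 0.41 (SE). Serpinb6a, an intracellular protease inhibitor on none of the lists, rose by 0.60 ± 0.16 (SE, adjusted p of 0.0385) against 1.94 in chow-fed dKO hearts, and passed in 15 of 34 settings. Cd55, which shields cells from complement, rose by 0.83 ± 0.22 (SE, adjusted p of 0.0436) and was the called member among 11 complement genes, whose median was 0.03. It did not overlap between groups but passed in 13 of 33 settings, the fewest of the 44 genes, and chow-fed dKO hearts differed by 1.02.

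Of 12 chemokine and cytokine genes 0 passed, beside 0.776% of all genes tested, and their median was 0.15. Ccl2, which recruits monocytes, stood at 1.33 with a 95% interval from 0.46 to 2.20 (adjusted p of 0.128), and its dKO probucol hearts lay between -0.40 and 0.38 against -2.44 to 0.10 in controls. Chow-fed dKO hearts had 2.67 to 4.72. Cx3cl1, the membrane-bound fractalkine of endothelium, pointed the other way at -1.34, with an interval from -2.10 to -0.58 (adjusted p of 0.0644). Thy1, a surface protein of T cells and fibroblasts, did not overlap between the groups, at -2.18 to -1.33 against -1.18 to 1.02, yet missed the threshold with an adjusted p of 0.0565. Its HET probucol hearts, at -1.41 and -1.45, lay within the dKO probucol range. In all, ranges of 10 genes lay wholly above (0.176%) and of 7 genes wholly below (0.123%) the controls, and 11 of these 17 genes were called.

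The antioxidant and the clock lists each held 2 of the 26 falls. Of 33 antioxidant and glutathione genes 2 fell and 0 rose, and their median was -0.01. Among all genes tested 0.458% fell and 0.317% rose. Sod1 encodes the cytosolic superoxide dismutase and ranged from 2.93 to 4.22 (median 3.14) in dKO probucol hearts and from 3.63 to 4.90 (median 4.02) in HET chow hearts. The ranges overlapped, and the difference was -0.80 ± 0.20 (SE, adjusted p of 0.0332). Mgst3, a microsomal glutathione transferase, ranged from 3.74 to 4.91 against 4.48 to 6.08, a difference of -0.89 ± 0.22 (SE, adjusted p of 0.0296). With the array set as a block neither passed. In HET probucol hearts Sod1 was 3.26 and 3.47 and Mgst3 4.14 and 4.34, all below the 9 HET chow hearts, although neither difference passed. Cat, Gpx1 and Sod2 stood at 0.05, 0.02 and 0.29. Nnt, the mitochondrial transhydrogenase that regenerates NADPH and is not on that list, rose by 0.81 ± 0.19 (SE, adjusted p of 0.0296), from 3.76 to 4.64 in controls to 4.56 to 5.25. In chow-fed dKO hearts it was lower than in controls by -1.02, so treated and untreated dKO hearts stood on opposite sides, 1.83 apart (adjusted p of 4.06e-14).

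Among 14 clock genes 2 fell and 0 rose, with a median of -0.22, where 0.458% of all genes tested fell. The 2 genes encode transcriptional repressors of the clock. Nr1d1 ranged from 1.77 to 2.10 against 2.04 to 3.03, a difference of -0.67 ± 0.18 (SE, adjusted p of 0.0459). Bhlhe40 ranged from 0.63 to 1.30 against 1.06 to 2.21, a difference of -0.71 ± 0.19 (SE, adjusted p of 0.0436). Each overlapped the controls, and the calls held in 14 and 19 of 34 settings. No source used here gives the hour at which hearts were taken. HET probucol hearts lay among the controls in Nr1d1 (2.49 and 2.80) and below all of them in Bhlhe40 (0.59 and 0.75). Chow-fed dKO hearts differed by -0.87 in Nr1d1 and by 0.59 in Bhlhe40. Arnt, the dimer partner of the hypoxia-inducible factors and of the dioxin receptor, fell by 0.91 on the log2 scale, with an adjusted p of 0.00796, and its dKO probucol hearts spread from -1.11 to 1.02.

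**Figure D4:**
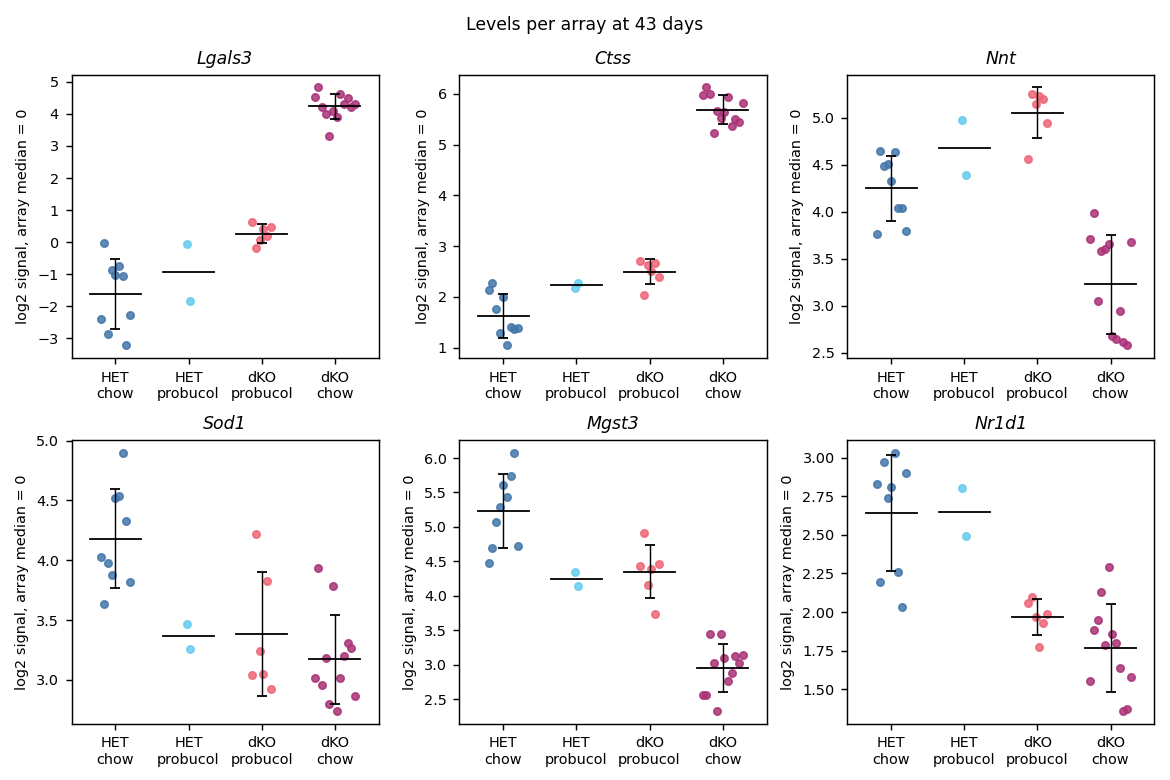
Log2 signal per array (array median at 0) of Lgals3, Ctss, Nnt, Sod1, Mgst3 and Nr1d1 in the 4 groups of 43 days, drawn as points with means and SD (no SD for the 2 HET probucol hearts). Lgals3 and Ctss of dKO probucol hearts sit near the controls and far below dKO chow, and Nnt is above the controls in dKO probucol and below them in dKO chow.

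Prpf19, a ubiquitin ligase of the spliceosome, was the firmest fall after Scarb1. It ranged from 1.87 to 2.32 in dKO probucol hearts and from 2.37 to 3.59 in HET chow hearts, with no overlap, and differed by -0.88 ± 0.15 (SE, adjusted p of 9.13e-05). Chow-fed dKO hearts were lower still by this measure, at -1.49 against the same controls. HET probucol hearts had 2.14 and 2.44. A dimmer second probe set of Prpf19 gave -0.18 and did not pass. Hnrnpl, a splicing regulator, differed by -1.11 and was also lower in HET probucol against HET chow, at -1.81 (adjusted p of 0.0156). Other falls were Skp1 (-0.86), a subunit of cullin ubiquitin ligases, Ube2r2 (-0.47), a ubiquitin-conjugating enzyme, Znrf1 (-0.67), a ubiquitin ligase, Npepps (-0.52), a cytosolic aminopeptidase, and Nfe2l1 (-0.49), a transcription factor of proteasome genes. Against HET chow, the 2 HET probucol hearts differed by -1.07 in Skp1, -0.21 in Ube2r2, -0.91 in Znrf1, -0.94 in Npepps and -0.46 in Nfe2l1. Of these differences only that of Npepps passed. Psmb2, a proteasome subunit, stood at -0.48 with an adjusted p of 0.0566. In all, 0 of 25 proteasome genes passed, beside 0.776% of all genes tested. The median of the proteasome genes was 0.01.

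Ntsr2, a neurotensin receptor, had the largest fall among the called genes, at -1.44 ± 0.36 (SE, adjusted p of 0.0312), and Daxx, a histone chaperone, differed by -1.06. Against HET chow, the HET probucol hearts stood at -1.69 in Ntsr2 and -0.41 in Daxx, and neither difference passed. Col15a1, a basement membrane collagen, differed by -0.76 and was the called member among 42 matrix genes, whose median was -0.12 here and 0.85 in chow-fed dKO hearts. Casq1, the calcium-binding protein of the sarcoplasmic reticulum best known from skeletal muscle, ranged from 1.09 to 1.71 against 1.95 to 2.53 and did not overlap, with a difference of -0.74 ± 0.19 (SE, adjusted p of 0.0345). Beside it, the mean level of 8 skeletal muscle genes was 1.34 to 1.63 in dKO probucol hearts and 1.65 to 1.92 in HET chow hearts, although 0 of the 8 passed. The 2 HET probucol hearts had Casq1 at 1.45 and 1.90, below all HET chow hearts, with list means between 1.76 and 1.94. Chow-fed dKO hearts differed from HET chow by -1.30 in Casq1, with list means from 1.05 to 1.59. Whether the share of skeletal muscle in the samples had a part in Casq1 was not tested. Further falls between -0.41 and -0.79 were Pfdn2 (a prefoldin subunit), Rgcc, Septin9, Naa15, Sun2 (a nuclear envelope protein), Cnn2 (a calponin), Slc39a1 (a zinc transporter), Nrtn (neurturin) and Tsc22d4. HET probucol hearts were also lower than HET chow hearts in each of these but Rgcc (0.34), from -0.17 in Tsc22d4 to -0.96 in Pfdn2. None of those differences passed. For 9 called genes the array held 11 other probe sets, all dimmer. Of these, the second Mgst3 (0.21) and Slc39a1 (0.28) probe sets, both below the filter on dim signals, and a Naa15 probe set (0.02) had the opposite sign, with none called.

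The remaining rises, like those of Nnt and Serpinb6a, belonged to none of the lists. Sephs2, a selenophosphate synthetase, rose by 1.73, Fv1, a retroviral restriction factor, by 1.42, and 1110032A03Rik by 1.86, and in each the treated range overlapped the controls, which were widely spread. Rcbtb1 (0.98), B4galt6 (0.64), a lactosylceramide synthase, and Ebf2 (0.63), a transcription factor of brown fat precursors, did not overlap. Sec61a2 (0.93), Jmjd6 (0.71) and Kctd9 (0.61) did. In HET probucol hearts 1110032A03Rik stood above all 9 HET chow hearts, the lower at 0.21 against 0.08 in the highest control.

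The lists of sarcomere, calcium handling, fatty acid oxidation and respiratory chain genes held no called member, whereas Casq1 and Nnt, which are on none of them, were called as given above. Of 47 lists with at least 3 measured genes, 38 had 0 called. Since 0.776% of all 5672 genes tested were called, lists of these sizes can hold 0 without departing from that share. The 29 fatty acid oxidation genes had a median of 0.12, against -1.11 in chow-fed dKO hearts, and the 45 genes of the citrate cycle and respiratory chain had 0.07 against -0.97. The 14 sarcomere genes stood at 0.16 against -0.58, the 7 calcium handling genes at 0.05 against -0.88, and the 15 cardiac stress and fetal genes at -0.10 against 0.59. Erythroid genes (4 measured) had 0.04 against 2.00, and MHC class II genes (8 measured) 0.08 against 1.04. A missed threshold does not show that these genes were at control levels, and the intervals bound how far they could lie. Acadm, a fatty acid dehydrogenase, stood at 0.44 (95% interval 0.08 to 0.79, adjusted p of 0.267), and Atp2a2, whose pump refills the calcium store of the muscle cell, at 0.39 (0.06 to 0.73, adjusted p of 0.285). Myh6, the adult cardiac myosin, stood at 0.24 (-0.06 to 0.53), and Alas2, the haem synthesis enzyme of red cell precursors, at 0.12 (-0.35 to 0.60). Nppb, the natriuretic peptide of the strained ventricle, lay between 4.10 and 4.69 in dKO probucol hearts, between 4.33 and 6.16 in HET chow hearts and between 5.93 and 6.55 in dKO chow hearts. Its difference from HET chow was -0.70 (-1.26 to -0.14, adjusted p of 0.256).

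**Figure D5:**
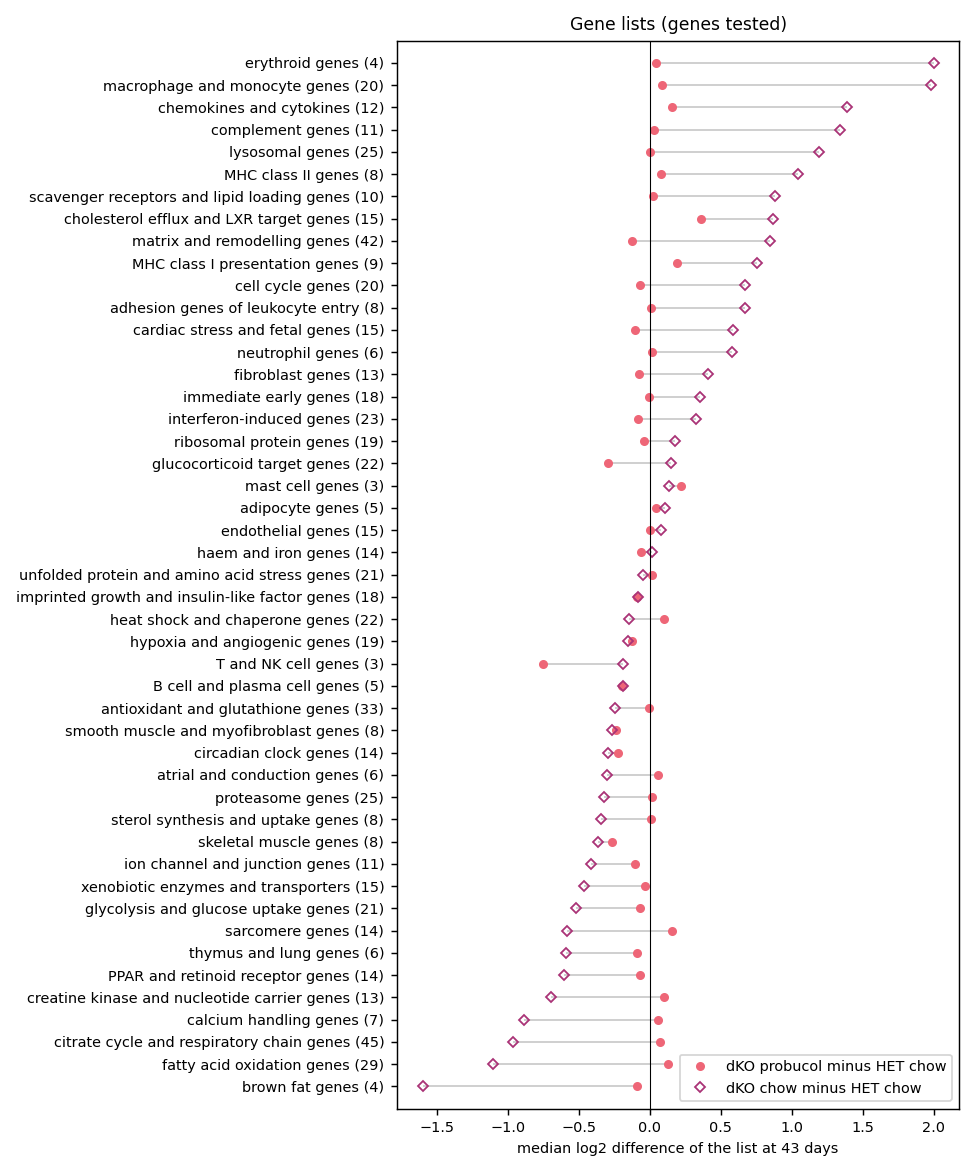
Median log2 difference of each gene list at 43 days (number of genes tested in brackets), with filled circles for dKO probucol minus HET chow and open diamonds for dKO chow minus HET chow, which share the HET chow arrays. Filled circles lie close to 0 for most lists, and the list of cholesterol efflux and LXR target genes has the highest one at 0.36. The lowest one, farther from 0, is that of the T and NK cell genes at -0.75, with 3 genes tested and 0 called.

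With HET probucol hearts as the reference, so that both groups had the drug, 3 genes passed (0.0529%), Scarb1 lower (0.0176%) and Tpm2 and Ints5 higher (0.0353%), while 284 (5.01%) had an unadjusted p under 0.05. Tpm2, a tropomyosin, differed by 2.01 from HET probucol but by 0.19 from HET chow hearts. The drug in HET hearts called 14 genes (0.247%), Apod higher (0.0176%) and 13 lower (0.229%), with 512 (9.03%) at an unadjusted p under 0.05. Of the lower genes, Hnrnpl and Npepps are also among the falls above. Eif2s3y exceeded Xist on 2 of 2 HET probucol arrays, but on 2 of 6 dKO probucol and 5 of 9 HET chow arrays. The part of this imbalance was not tested. The gene counts of these comparisons rest on 2 HET probucol hearts. In refits chosen after seeing the data, without replicate 1 they were 34 and 60, and without replicate 2 they were 5 and 6. Each refit leaves 1 HET probucol heart, which is assumed to vary like the hearts of the other groups. They share arrays with the main comparison and are no separate evidence for it.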

How the data were processed

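RNA of whole mouse hearts was measured on 88 Affymetrix arrays, 1 per mouse, in 12 groups. The authors deposited 1 intensity per probe set and array on a linear scale; MAS5 is the tool named in the submitters' processing notes, and no source used here gives a scaling between arrays. Intensities were floored at 4.22, the 10th percentile of all values, turned to log2 and centred on the array median. Of 12488 probe sets, 10855 had 1 gene symbol, 396 had several and were not used, and 10839 matched a RefSeq gene; the upper 60% by mean signal were kept, with the brightest probe set per gene, which left 5672 genes. Median intensity per array was 27.8 to 75.4; precision is limited by how many arrays a group has. limma 3.58.1 in R 4.3.3 was fitted on all 12 groups with an intensity trend, and p-values were adjusted by Benjamini-Hochberg over all genes. The fit was tested on simulated data for dKO probucol against HET chow over 5672 genes, where it recovered 10%, 80% and 100% of genes changed by 0.5, 1 and 2 on the log2 scale, with 12 false calls. The simulated noise was independent between arrays, with the same spread of a gene in all groups. Array sets and unequal spread between groups are therefore not covered by these figures.

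The comparison and the 48 gene lists were chosen with earlier results of these data known. Genes named by rule were Scarb1 and Apoe, the 15 largest rises and falls past the threshold, and, per list with at least 3 tested genes, up to 4 called members or the 2 with the smallest p. The other called genes, further list members, and Fasn, Prrg4, Ddit4, Tpm2 and Ints5 were named after their values were seen. Replicate numbers did not pair the mice. Alternatives changed the scaling, floor, filter, probe sets, covariates, blocks and arrays.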

Additional observations from a re-analysis of the deposited data

Results flagged for a closer look

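Of 232 tests of a group of 6 or 9 hearts, 14 found a heart far from the others. By chance about 1 in 20 would, so the number flagged is near what chance gives. Among HET chow hearts, replicate 2 was lowest in Hnrnpl (0.65), Gzmb (-2.06) and Tfrc (2.86) and highest in Vdac2 (3.35). Replicate 3 was lowest in B4galt6 (0.013), which was called as higher in dKO probucol, and replicate 4 in Acp5 (-2.81) and Icam1 (-2.71). Replicate 5 was lowest in S100a8 (-2.90), replicate 8 in Kit (-3.23), and replicate 9 in Ifi204 (-0.94) and H2-K1 (4.18). Among dKO probucol hearts, replicate 1 was lowest in Daxx (-1.79), a gene called as lower. Replicate 4 was highest in Nrtn (2.86) and lowest in Tsc22d4 (3.17), both called as lower. All are log2 signals relative to the array median.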

How the results depend on the processing

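The 44 called genes kept their sign in all 34 settings run for each, and 4 of them passed in every one without a minimum fold. The number called, higher and lower moved as follows. Fitting only the 2 groups compared gave 10 (5 and 5), a minimum of 1.5-fold 2 (2 and 0), and array weights 200 (38 and 162). The Gapdh ratio of 3′ to 5′ signal as a covariate gave 23 (8 and 15), and the actin ratio 87 (63 lower). The array set as a block gave 20 (7 lower), and leaving out its 3 HET chow arrays gave 5 (3 and 2). Leaving out the 2 HET chow arrays apart on the first component, chosen after seeing the data, gave 95 (80 lower). Lower genes numbered 47 on the signals as deposited and 17 without the filter on dim probe sets, and higher genes 31 after quantile normalization. Leaving out 1 array at a time gave 8 to 115 genes, 5 to 39 higher and 3 to 76 lower. The replicate block gave 37 (14 and 23); same-numbered hearts of both groups correlated by -0.022 to 0.157 over 6 pairs, 2 of 6 best with their own number, so the numbers pair nothing. Over all 116 named genes, 3363 of the alternative values kept their side of the threshold, 470 lost it, 86 gained it and 2 moved without a test. The causes were not tested. Faint probe sets near the floor, such as Apod and Lgals3 in HET chow hearts, have uncertain folds.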
